A study of Mus musculus with 25 samples.

Results

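The genes described here are the 6 collagen IV chain genes, Col4a1, Col4a2, Col4a3, Col4a4, Col4a5 and Col4a6, out of 17097 genes named on the array. They were chosen by family membership, and each is represented by its brightest probe set on average across the arrays, among those annotated with that chain's symbol alone. The 6 genes have 11 probe sets, 1 for Col4a2 and 2 for each of the other chains. All 6 passed the filter that left out the 30% of genes with the lowest mean signal, so all are among the 11968 genes tested.

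The series measured polysomal RNA of kidney podocytes, the epithelial cells that cover the glomerular capillaries, on 25 arrays. All mice carried Tg:Col1a1-eGFPL10a, a fluorescent ribosomal protein driven by a collagen 1α1 promoter, in a C57/129sv background. The tagged ribosomes were purified with their RNA (translating ribosome affinity purification), so a value reflects the transcripts on ribosomes of the cells in which that promoter is active, plus any RNA carried over. Wild-type (WT) mice were compared with knock-in (KI) mice carrying Actn4tm1.1Plk, a point mutation in alpha-actinin-4, an actin crosslinker of the podocyte foot process. The WT groups had 4 arrays at 2 weeks of age, 5 at 5 weeks and 4 at 44 weeks, and each KI group had 4. The ages follow the design text; other labels of the oldest groups give 10 months and postnatal day 300 in place of 44 weeks. The labels do not give whether the KI mice were heterozygous or homozygous, list the sex as unknown and do not tie arrays to separate animals. The median log2 difference of 3 Y-linked transcripts was -2.86 in WT at 44 against 2 weeks, -2.77 in KI against WT at 2 weeks and 2.30 at 44 weeks, with 0 of 3 called, and 2 of the chains are X-linked. The p-values therefore measure the spread between these samples, which may in part be technical.

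Collagen IV is the structural network of basement membranes. Its chains assemble inside the cell into fixed trimers, α1α1α2, α3α4α5 and α5α5α6, which are exported and joined to each other through their ends. During glomerular development the first network is made of α1α1α2, and the α3α4α5 network made by podocytes then becomes the main one of the capillary wall, a change often called the chain switch. Mutations of COL4A3, COL4A4 or COL4A5 cause Alport syndrome, a hereditary kidney disease with a splitting basement membrane. In the kidney α1 and α2 are also made by endothelial and mesangial cells, and α6 belongs mainly to Bowman's capsule and tubular basement membranes.

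The chains lie in the mouse genome as head-to-head pairs, transcribed away from each other. Of these pairs Col4a1 and Col4a2 moved together, and whether the arrangement bears on that was not tested. In RefSeq's GRCm38.p6 annotation Col4a1 lies at chr8:11198423-11312889 on the minus strand and Col4a2 at chr8:11312805-11449287 on the plus strand, and their gene models overlap by 85 bases. Col4a4 at chr1:82448419-82587034 (minus) and Col4a3 at chr1:82586921-82722059 (plus) overlap by 114 bases. Col4a6 at chrX:141165403-141474095 (minus) and Col4a5 at chrX:141475370-141689236 (plus) are 1274 bases apart. A RefSeq promoter window, set around a start position, was available for 5 of the 6 chains, all but Col4a3. For Col4a2 that position, 11312805, is the first base of the gene model. For the others it lies inside the gene model, at 11312826 for Col4a1, 82586849 for Col4a4, 141475419 for Col4a5 and 141474076 for Col4a6. The windows of Col4a1 and Col4a2 share 78 bases, chr8:11312777-11312854.

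A stretch of 30 bases upstream of the start position of the window is given 5′ to 3′ on the gene's strand for 4 chains. Those of Col4a4 and Col4a5 lie inside their gene models, and that of Col4a6 lies partly inside. Col4a2 is at chr8:11312770-11312799, Col4a4 at chr1:82586855-82586884, Col4a5 at chrX:141475379-141475408 and Col4a6 at chrX:141474082-141474111. Capitals mark matches, on either strand, to a CCAAT box (CCAAT), a GC box (GGGCGG) or the stretch CCCTCCCC.
Col4a2: tccCCAATttgttggcgctgccCCCTCCCC
Col4a4: ggggagtggccagcagccctgcccagatta
Col4a5: agcGGGGAGGGGGCGGtgcagggaagagag
Col4a6: gacagcaggcagccCCGCCCcgtccccctc
In these stretches the CCAAT box of Col4a2 starts at position -32 and its CCCTCCCC at -13. All positions are counted from the start position of the window. In Col4a5 the reverse of CCCTCCCC at -37 overlaps a GC box at -30 by 1 base, and Col4a6 has a reversed GC box at -21. The window of Col4a1 holds, all reversed, a CCAAT box at -145, a GC box at 10 and CCCTCCCC at 28, and that of Col4a2 has 3 GC boxes outside its stretch. The GC box and CCCTCCCC of Col4a1 lie in the 78 bases that both windows share. They are the same bases as the Col4a2 GC box at 8 and CCCTCCCC at -13, so they are not separate matches. Neither TATAAA nor TAATTA, a core of homeodomain sites, was found on either strand in the 5 windows, and Col4a4 had none of the 5 motifs. Of 32851 promoter windows of the same length, 37.4% hold CCAAT, 35.7% GGGCGG, 13.6% TATAAA, 10.8% CCCTCCCC and 5.29% TAATTA. These matches describe letters in a window and are not binding sites.

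The podocyte label was checked against marker lists. Wt1, a podocyte transcription factor, had group means of 12.05 to 12.45 on the log2 scale and Podxl, a podocyte surface sialomucin, 12.60 to 12.89. Of other podocyte markers, Nphs1 was at 9.85 to 11.09 and the transcription factor Lmx1b at only 4.52 to 5.12. Group means ran from 4.52 to 5.82 for the endothelial marker Pecam1, from 4.32 to 6.31 for the leukocyte marker Ptprc and from 7.73 to 9.12 for the pericyte and mesangial marker Pdgfrb. The tubule marker Umod was bright in all groups, at 10.59 to 11.75. The mean of the endothelium list was 6.45 to 7.23 and that of the proximal tubule list 9.40 to 10.45, so transcripts of other cells were measured in all groups. Since probe sets differ in brightness, these levels do not rank the cell types or give a purity. WT array 15 of 44 weeks had the highest proximal tubule mean, 10.89, and of the 5-week WT arrays, 6 and 10 had a mean of the mesangium, pericyte and smooth muscle list of 8.03 and 7.79 against 6.92 to 7.35 in arrays 7, 8 and 9. A lower value can mean fewer cells of a type or less RNA per cell, which cannot be told apart in these samples. Actn4 has no named probe set in the annotation used and was not analysed here.

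**Figure D1:**
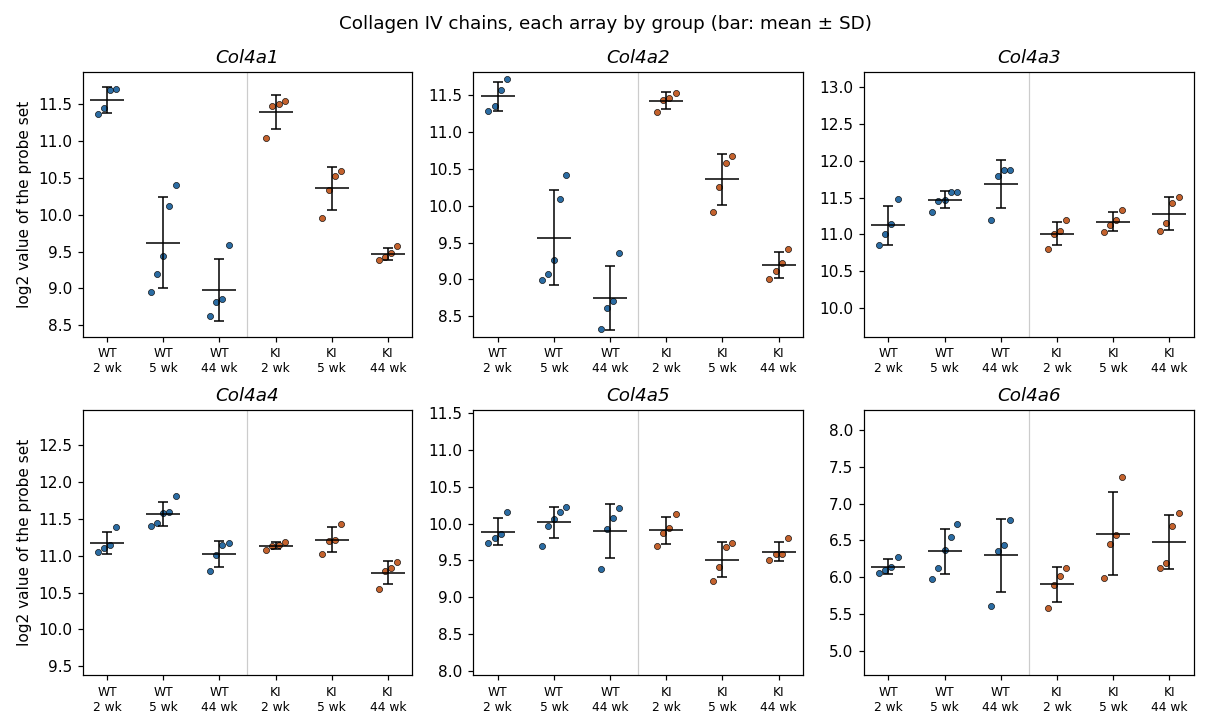
Log2 value of each collagen IV chain's probe set (y axis) in every array, by group (x axis), with the group mean and SD as bars. Every panel spans the same number of log2 units, and levels are not comparable between panels because each probe set binds differently. Col4a1 and Col4a2 step down with age in both genotypes, from 11.56 to 8.97 and from 11.49 to 8.75 in WT, while the group means of Col4a3 stay between 11.01 and 11.69 and those of Col4a5 between 9.51 and 10.02.

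The chains of the first network fell with age in WT podocyte RNA. Col4a1 was 6.00-fold lower and Col4a2 6.67-fold lower at 44 than at 2 weeks, and most of that fall lay between 2 and 5 weeks. Of the chains of the mature network, Col4a3 rose between 2 and 44 weeks, Col4a4 rose to 5 weeks and then fell, and Col4a5 did not pass the test at any step. The 3 age comparisons within a genotype share their arrays, so their values are not independent of each other.

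Col4a1 encodes the more abundant chain of the first network's trimer. Its log2 values in WT were 11.71, 11.70, 11.45 and 11.37 at 2 weeks. At 5 weeks they were 10.40, 8.95, 9.20, 9.44 and 10.12, and at 44 weeks 9.59, 8.82, 8.86 and 8.63. All 2-week arrays lay above all older ones, and at 5 weeks arrays 6 and 10 stood apart from the other 3 and close to the KI arrays of that age. The change from 2 to 5 weeks was -1.94 ± 0.24 (limma's log2 fold change and standard error, adjusted p = 1.2e-05). The step from 5 to 44 weeks was -0.65 ± 0.24 and did not pass (adjusted p = 0.055), and the whole change from 2 to 44 weeks was -2.58 ± 0.25 (adjusted p = 2.6e-07). The call of the later step depended on the processing. It passed with quantile normalization, median centring, a 50% filter, a trended prior, array weights or the tubule or endothelium covariate. The same held without WT array 7, 8 or 15 (-0.65 to -0.94 in all these, adjusted p from 0.0096 to 0.048). On the second probe set it was -0.47 (adjusted p = 0.27), and with the mesangium, pericyte and smooth muscle list as a covariate -0.33 (adjusted p = 0.13). Keeping only WT arrays 6 and 10, the highest at 5 weeks, gave -1.28, a size set by that choice.

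Col4a2 encodes the partner chain. In WT it read 11.57, 11.73, 11.36 and 11.29 at 2 weeks. It read 10.42, 8.99, 9.07, 9.27 and 10.09 at 5 weeks and 9.36, 8.32, 8.71 and 8.61 at 44 weeks. The order of the arrays within each WT group was close to that of Col4a1, with arrays 6, 10 and 15 again the highest of their groups. The change was -1.92 ± 0.25 from 2 to 5 weeks (adjusted p = 1.9e-05), -0.82 ± 0.25 from 5 to 44 weeks (adjusted p = 0.025) and -2.74 ± 0.26 from 2 to 44 weeks (adjusted p = 2.5e-07). The middle value was lost in a fit of only the WT arrays of 5 and 44 weeks (adjusted p = 0.16) and without WT array 6 of 5 weeks or array 16, 17 or 18 of 44 weeks (-0.60 to -0.80, adjusted p from 0.05 to 0.078). Ranked from the largest fall between 2 and 44 weeks in WT, Col4a2 stood at 77 and Col4a1 at 90 of the 11968 genes tested.

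Col4a3 encodes a chain of the mature network. Its WT values were 11.48, 11.14, 10.86 and 11.01 at 2 weeks. At 5 weeks they were 11.30, 11.45, 11.46, 11.58 and 11.57, and at 44 weeks 11.20, 11.88, 11.88 and 11.79. Array 15 of 44 weeks lay well below the other 3, inside the 2-week range, so the groups overlapped. Col4a3 was 1.48-fold higher at 44 than at 2 weeks (0.57 ± 0.15, adjusted p = 0.0065). Neither step on its own passed, with 0.35 ± 0.14 to 5 weeks (adjusted p = 0.062) and 0.22 after it (adjusted p = 0.30). The step to 5 weeks passed with median centring, a trended prior, array weights or the tubule covariate, and without WT array 1. It was 0.34 to 0.48 in these (adjusted p from 0.0012 to 0.047). The later step passed with the tubule covariate (0.42, adjusted p = 0.044). On the second probe set neither step passed (0.57 and 0.32, adjusted p = 0.11 and 0.42). The call over the whole span was lost in a fit of only the WT arrays compared (adjusted p = 0.066) and with the mesangium, pericyte and smooth muscle list as a covariate (0.48, adjusted p = 0.22).

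Col4a4, the partner of Col4a3 in the genome and in the trimer, followed another course. Its WT values were 11.39, 11.15, 11.11 and 11.05 at 2 weeks. They were 11.81, 11.58, 11.45, 11.59 and 11.40 at 5 weeks and 10.79, 11.01, 11.17 and 11.15 at 44 weeks. Every 5-week array lay above every array of the other WT ages, though the lowest one, at 11.40, only just exceeded the highest 2-week array, at 11.39. The gene rose by 0.39 ± 0.11 to 5 weeks (adjusted p = 0.0083) and fell by 0.54 ± 0.11 to 44 weeks (adjusted p = 0.0021), which left -0.14 over the whole span (adjusted p = 0.35). The second, dimmer probe set of Col4a4 gave 0.37 for the rise (adjusted p = 0.11) and -0.17 for the fall (adjusted p = 0.52), so neither call held on it. The rise was also lost in a fit of only the WT arrays compared (0.39, adjusted p = 0.055), with the mesangium, pericyte and smooth muscle covariate (0.45, adjusted p = 0.069) and with only arrays 6 and 10 kept at 5 weeks (0.43, adjusted p = 0.074), none of them with a smaller change.

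Col4a5 encodes the third chain of the mature network and is X-linked. It read 10.15, 9.86, 9.73 and 9.81 at 2 weeks in WT. It read 9.96, 10.16, 10.06, 10.22 and 9.69 at 5 weeks and 9.38, 10.08, 10.21 and 9.92 at 44 weeks. The groups overlapped throughout, with array 15 the lowest of all WT arrays. The changes were 0.13 from 2 to 5 weeks (adjusted p = 0.54) and 0.01 from 2 to 44 weeks, with a 95% interval of -0.32 to 0.35. Its second probe set gave -0.45 over the same span.

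Col4a6 encodes the chain that pairs with α5 outside the glomerular capillary wall, and its probe set was the dimmest of the 6. Its WT values were 6.10, 6.28, 6.05 and 6.14 at 2 weeks. They were 6.13, 6.55, 5.98, 6.72 and 6.37 at 5 weeks and 5.61, 6.78, 6.44 and 6.35 at 44 weeks. The spread grew with age while the means stayed between 6.14 and 6.35, and no WT age comparison passed (adjusted p of 0.54 from 2 to 5 weeks).

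In all, 1 chain was higher and 2 were lower at 5 than at 2 weeks in WT, where 12.2% of all genes tested were called higher and 21.7% lower. For these 3 the arrays of both ages did not overlap either, as for 7.42% of all genes upward and 9.32% downward. Over the whole span to 44 weeks the counts were again 1 higher and 2 lower, against 13.6% and 18% of all genes. From 5 to 44 weeks 0 were higher and 2 lower, against 11.3% and 8.85%, and 1 chain, Col4a4, fell without overlap, against 5.77% of all genes upward and 6.38% downward. From 2 to 44 weeks Col4a1 and Col4a2 were without overlap, against 16.3% of all genes downward and 11.3% upward. The median change of the 6 chains from 2 to 5 weeks was 0.17, beside -0.06 over all genes, a middle value between falls of the early chains and small changes of the rest.

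KI podocyte RNA showed the same falls of the early chains, in steps of more equal size. Col4a1 read 11.48, 11.51, 11.55 and 11.05 in the KI arrays of 2 weeks. At 5 weeks it read 10.53, 10.34, 9.96 and 10.60, and at 44 weeks 9.57, 9.38, 9.48 and 9.43. The KI ages did not overlap at any step, and the 44-week arrays lay close together. Col4a1 changed by -1.04 ± 0.25 from 2 to 5 weeks (adjusted p = 0.0079), by -0.89 ± 0.25 from 5 to 44 weeks (adjusted p = 0.018) and by -1.93 ± 0.25, 3.82-fold, over the whole span (adjusted p = 9.7e-06). The middle step missed the threshold without KI array 23 or 26 of 5 weeks (-0.83 and -0.81, adjusted p = 0.052 for both).

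Col4a2 in KI read 11.46, 11.44, 11.54 and 11.27 at 2 weeks. It read 10.58, 10.26, 9.92 and 10.68 at 5 weeks and 9.42, 9.01, 9.23 and 9.11 at 44 weeks. Again each age lay wholly below the one before. The changes were -1.07 ± 0.26 (adjusted p = 0.0092), -1.17 ± 0.26 (adjusted p = 0.0048) and -2.23 ± 0.26, 4.71-fold, over the whole span (adjusted p = 3.6e-06).

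The mature chains differed in course within KI. Col4a3 read 11.04, 11.01, 11.19 and 10.80 at 2 weeks, 11.12, 11.03, 11.20 and 11.33 at 5 weeks, then 11.04, 11.16, 11.42 and 11.51 at 44 weeks. The ages overlapped, and the whole change of 0.27 ± 0.15 did not pass (adjusted p = 0.18). Col4a4 read 11.08, 11.15, 11.14 and 11.19 at 2 weeks, 11.02, 11.20, 11.43 and 11.22 at 5 weeks, then 10.91, 10.80, 10.83 and 10.55 at 44 weeks. Its 44-week arrays lay below all younger KI arrays, with -0.44 ± 0.11 from 5 to 44 weeks (adjusted p = 0.012) and -0.37 ± 0.11 from 2 to 44 weeks (adjusted p = 0.019). On its second probe set these were -0.36 (adjusted p = 0.18) and -0.06 (adjusted p = 0.83), and without KI array 34 the change from 2 to 44 weeks was -0.29 (adjusted p = 0.074).

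Col4a5 in KI read 9.87, 9.94, 10.13 and 9.69 at 2 weeks, 9.22, 9.41, 9.68 and 9.73 at 5 weeks, then 9.51, 9.58, 9.58 and 9.80 at 44 weeks. The older arrays were lower on average but overlapped the 2-week ones, and -0.40 ± 0.16 from 2 to 5 weeks did not pass (adjusted p = 0.11). Col4a6 in KI read 6.02, 6.13, 5.89 and 5.58 at 2 weeks, 6.57, 5.99, 7.36 and 6.45 at 5 weeks, then 6.70, 6.13, 6.19 and 6.87 at 44 weeks. Array 25 of 5 weeks was the highest of all 25 arrays for this gene, and the changes of 0.69 ± 0.25 to 5 weeks (adjusted p = 0.073) and 0.57 to 44 weeks (adjusted p = 0.094) did not pass. With the Y-linked mean as a covariate both passed (0.97 and 0.86, adjusted p = 0.0038 and 0.0039). The tubule covariate gave 0.77 and 0.79 (adjusted p = 0.0076 and 0.0035). The change to 5 weeks also passed with the endothelium covariate or without KI array 24, and that to 44 weeks with only the arrays compared. On the second probe set neither passed (0.32 and 0.55, adjusted p = 0.44 and 0.10).

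In KI, 0 chains were higher and 2 lower at 5 than at 2 weeks, against 5.4% and 8.29% of all genes called higher and lower. From 5 to 44 weeks 0 were higher and 3 lower, against 8.11% and 8.64%, and from 2 to 44 weeks 0 and 3, against 14.3% and 15.9%. The chains called in each KI age comparison were those whose ages did not overlap, which held downward for 13.7%, 13.3% and 18.5% of all genes in these comparisons and upward for 11.5%, 12.5% and 16.3%.

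**Figure D2:**
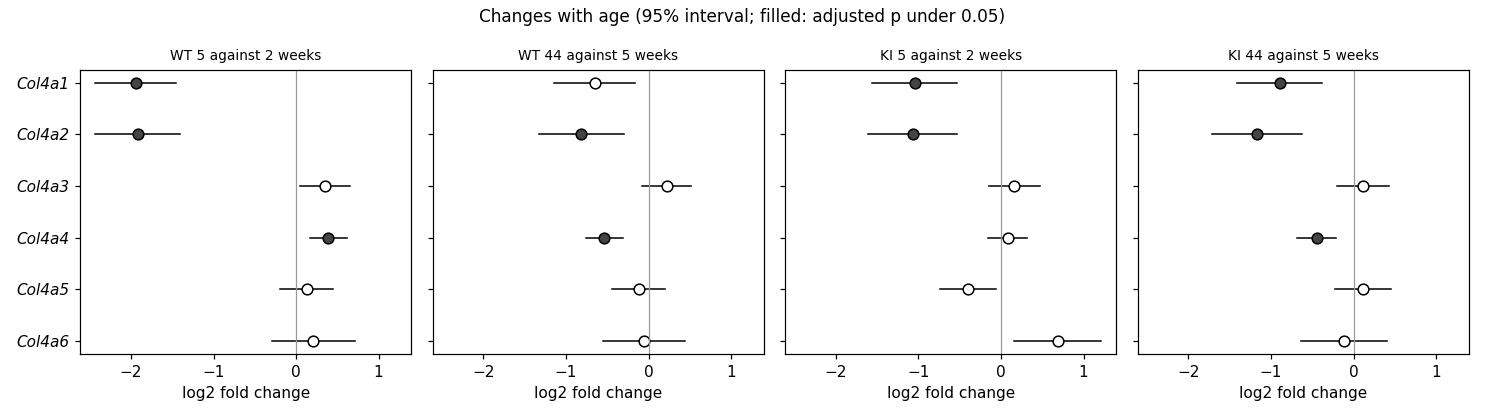
Log2 fold change (x axis) of each chain (y axis) for the steps from 2 to 5 and from 5 to 44 weeks in WT and KI, with 95% intervals, filled where the adjusted p is under 0.05. Col4a1 and Col4a2 sit farthest left in every panel, at -1.94 and -1.92 in the first WT step, and Col4a4 turns from 0.39 to -0.54 in WT.

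Other transcripts moved with Col4a1 and Col4a2. Col1a1, whose promoter drives the ribosome tag, had WT means of 11.64 at 2, 9.22 at 5 and 6.98 at 44 weeks, a 25.3-fold fall (-4.66 ± 0.41, adjusted p = 8.4e-08), and KI means of 11.18, 10.31 and 6.98. Its KI change from 2 to 5 weeks, -0.87 ± 0.41, did not pass (adjusted p = 0.18), and that from 5 to 44 weeks was -3.33 ± 0.41 (adjusted p = 4.3e-05). In KI against WT at 5 weeks Col1a1 was at 1.09 ± 0.39 (adjusted p = 0.05). The mean of the mesangium, pericyte and smooth muscle list was 8.25, 7.43 and 7.13 in WT and 8.28, 8.00 and 7.39 in KI, and 9 of its 12 tested genes were lower at 5 than at 2 weeks in WT. The podocyte list went the other way, with WT means of 10.68, 11.04 and 11.08 and 11 of 14 genes higher and 1 lower at 5 weeks. The endothelium list, 6.81, 6.45 and 6.84 in WT, had 1 gene higher and 2 lower of 15. The parietal epithelium list, of the cells that line Bowman's capsule, also went down, with means of 8.51, 7.69 and 7.54 in WT and 8.77, 7.77 and 7.77 in KI and 5 of 11 genes lower at 5 than at 2 weeks in each genotype. These counts stand beside 12.2% of all genes higher and 21.7% lower in WT, and 5.4% and 8.29% in KI.

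With the mesangium, pericyte and smooth muscle mean as a covariate, an alternative chosen after seeing the data, the falls of Col4a1 and Col4a2 from 2 to 5 weeks in WT were -1.03 (adjusted p = 0.0061) and -0.95 (adjusted p = 0.0096). Over the whole WT span they were -1.36 (adjusted p = 0.0022) and -1.42 (adjusted p = 0.0016). In KI the falls from 2 to 5 weeks were -0.73 for both (adjusted p = 0.0048 and 0.0049). Over the whole KI span they were -0.95 (adjusted p = 0.0069) and -1.18 (adjusted p = 0.0018). The KI step from 5 to 44 weeks was lost for both, with -0.22 (adjusted p = 0.52) and -0.45 (adjusted p = 0.16). The parietal list was not used as a covariate. What part other cell types or the activity of the driving promoter have in the falls of Col4a1 and Col4a2 was not tested beyond these values.

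**Figure D3:**
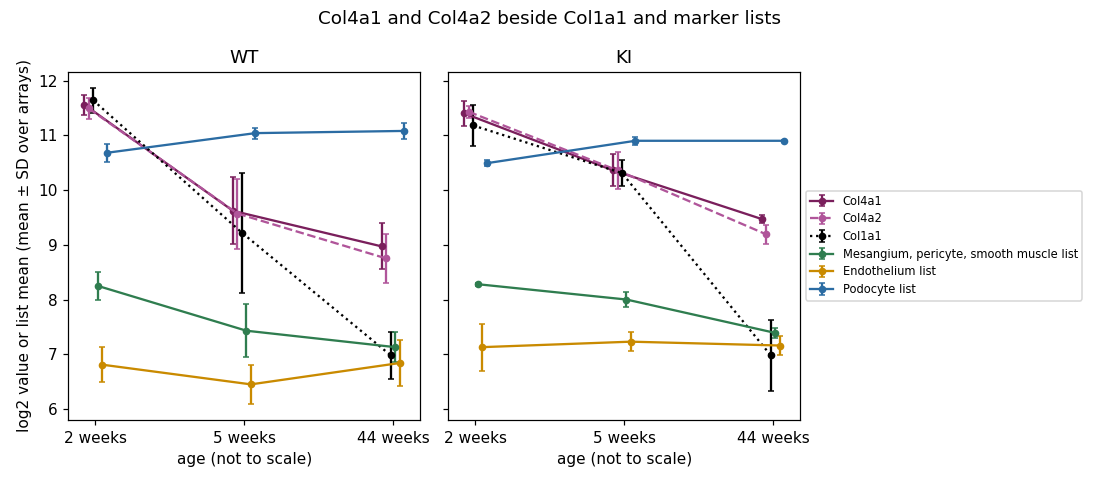
Group means ± SD over arrays (y axis, log2) by age (x axis, not to scale) for Col4a1, Col4a2, Col1a1 and the means of 3 marker lists, in WT and KI. Col1a1 falls from 11.64 to 6.98 in WT and the mesangium list from 8.25 to 7.13, alongside both early chains, while the podocyte list rises from 10.68 to 11.08; heights of different lines are not comparable.

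The study's second question was what the Actn4 mutation changes at each age. At 2 weeks 0 of the 6 chains differed between KI and WT (adjusted p from 0.93 to 0.99), and limma called 0 of all genes, with 613 at an unadjusted p under 0.05, so percent called was 0 both ways. The genotypes overlapped for every chain, while 1.16% of all genes were higher and 1.74% lower without overlap. At 5 weeks Col4a1 and Col4a2 were higher and Col4a4 and Col4a5 lower in KI. The Col4a1 and Col4a2 values of WT arrays 6 and 10 lay within the KI range. A fit that keeps only these WT arrays brings both differences near 0 by the choice of arrays, so it is no test of them. At 44 weeks 0 chains passed (adjusted p from 0.69 to 0.97), where 0.0167% of all genes were called higher and 0.00836% lower.

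At 5 weeks Col4a1 was 0.73 ± 0.24 higher in KI (1.66-fold, adjusted p = 0.031) and Col4a2 0.79 ± 0.25 higher (1.73-fold, adjusted p = 0.028). Col4a4 was lower, at -0.35 ± 0.11 (1.27-fold, adjusted p = 0.027), and Col4a5 lower, at -0.51 ± 0.15 (1.42-fold, adjusted p = 0.024). Col4a3 at -0.30 ± 0.14 (adjusted p = 0.13) and Col4a6 at 0.24 (adjusted p = 0.47) did not pass. The 2 higher and 2 lower chains compare with 14.3% of all genes called higher and 7.75% lower, and the genotypes overlapped for all 6, where 7.09% and 4.88% of all genes were higher and lower without overlap.

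The KI arrays of Col4a1 ran from 9.96 to 10.60 and overlapped WT arrays 6 and 10, at 10.40 and 10.12. WT arrays 7, 8 and 9 lay below them, at 8.95 to 9.44. With only arrays 6 and 10 kept in the WT group, the differences were 0.10 for Col4a1, 0.11 for Col4a2, -0.39 for Col4a4 and -0.31 for Col4a5, and 0 chains passed. The values of Col4a1 and Col4a2 there follow from the choice of arrays. Col4a4 ran from -0.42 to -0.28 with 1 array left out. The count was also 0 without WT array 7, without WT array 9 and without KI array 23, 1 without KI array 24 or 26 and 2 without WT array 8. It was 0 when only the 5-week arrays were fitted. On the second probe set Col4a1 was at 1.05 and passed (adjusted p = 0.017), while Col4a5 was at -0.10 (adjusted p = 0.83) and Col4a4 at -0.24 (adjusted p = 0.32). With the mean of the Y-linked genes as a covariate Col4a1 was at 0.63 and no longer called (adjusted p = 0.05), and the other 3 calls held.

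Marker lists also differed between genotypes at 5 weeks. Of the endothelium list 7 of 15 genes were higher in KI, with list means of 7.10 to 7.45 in the KI and 5.94 to 6.83 in the WT arrays. Of the mesangium, pericyte and smooth muscle list 4 of 12 were higher, with 7.81 to 8.13 in the KI arrays and 6.92 to 8.03 in the WT ones. Of the leukocyte list 6 of 12 were higher, of the loop, distal tubule and collecting duct list 4 of 19 and of the proximal tubule list 4 of 17, and of the podocyte list 2 were higher and 4 lower of 14. Of all genes 14.3% were higher and 7.75% lower. With the endothelium, mesangium or tubule mean as a covariate 0 chains passed. Col4a1 was then at 0.29, 0.11 and 0.35, Col4a2 at 0.26, 0.12 and 0.31 and Col4a5 at -0.26, -0.32 and -0.16. Col4a4 was at -0.35, -0.39 and -0.29 (adjusted p = 0.21, 0.14 and 0.25), beside -0.35 without a covariate. Whether these cells contribute to the chain differences was not tested further.

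At 44 weeks the differences had the same signs as at 5 weeks, 0.49 ± 0.25 for Col4a1, 0.44 ± 0.26 for Col4a2, -0.41 ± 0.15 for Col4a3, -0.26 ± 0.11 for Col4a4 and -0.28 ± 0.16 for Col4a5. The genotypes overlapped for each, where 1.43% and 1.31% of all genes were higher and lower without overlap, and 3 of the 11968 genes passed. WT array 15 was the highest WT array of 44 weeks for Col4a1 and Col4a2 and the lowest for Col4a3, Col4a4, Col4a5 and Col4a6. Averaged over ages 0 chains passed (Col4a4 closest, at -0.21 ± 0.06, adjusted p = 0.054), against 3.99% of all genes called higher and 1.33% lower. Without WT array 15 the averages were 0.42, 0.46, -0.33, -0.24 and -0.31 for Col4a1 to Col4a5, and these 5 passed (adjusted p from 0.0076 to 0.038).

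The change of the genotype difference between ages was tested as an interaction. From 2 to 5 weeks it was 0.89 ± 0.34 for Col4a1 (adjusted p = 0.17), 0.85 ± 0.36 for Col4a2 (adjusted p = 0.21) and -0.53 ± 0.22 for Col4a5 (adjusted p = 0.21). For the other chains the adjusted p ran from 0.28 to 0.64, so 0 of 6 passed, against 0.0251% of all genes called higher and 0% lower. From 5 to 44 weeks and from 2 to 44 weeks 0 chains and 0 genes passed in limma, with 2335 and 359 genes at an unadjusted p under 0.05. The slower fall of the early chains in KI between 2 and 5 weeks is therefore a difference in size that did not pass its own test.

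**Figure D4:**
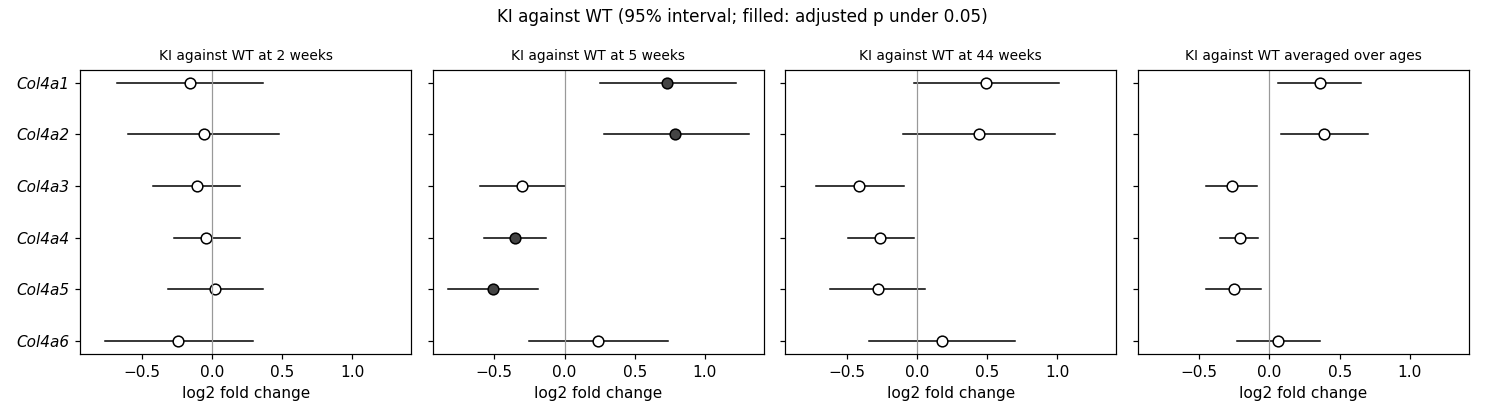
Log2 fold change of KI against WT (x axis) for each chain (y axis) at 2, 5 and 44 weeks and averaged over ages, with 95% intervals, filled where the adjusted p is under 0.05. At 5 weeks Col4a1 and Col4a2 lie right of 0, at 0.73 and 0.79, and Col4a4 and Col4a5 left of it, at -0.35 and -0.51; no chain is filled at the other ages or in the average.

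Ordered by group mean, Col4a1 was highest in WT at 2 weeks (11.56 ± 0.18, SD), then KI at 2 (11.40 ± 0.23), KI at 5 (10.36 ± 0.29), WT at 5 (9.62 ± 0.61), KI at 44 (9.47 ± 0.08) and WT at 44 weeks (8.97 ± 0.42). Only KI at 2 and KI at 5 weeks were neighbours whose arrays did not overlap, and Col4a2 had the same order. Col4a3 ran from WT at 44 weeks (11.69 ± 0.33) to KI at 2 weeks (11.01 ± 0.16), with all neighbours overlapping. Col4a4 ran from WT at 5 weeks (11.57 ± 0.16) to KI at 44 weeks (10.77 ± 0.15), Col4a5 from WT at 5 weeks (10.02 ± 0.21) to KI at 5 weeks (9.51 ± 0.24) and Col4a6 from KI at 5 weeks (6.59 ± 0.57) to KI at 2 weeks (5.90 ± 0.24). Neighbours in these orders overlapped too.

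The balance of both networks was described in each array as the mean log2 value of Col4a3, Col4a4 and Col4a5 minus that of Col4a1 and Col4a2. Its zero has no meaning, since probe sets differ in brightness, and as a score over the chains it has no test here. In WT it was -0.64, -1.0, -0.84 and -0.71 at 2 weeks, 0.62, 2.09, 1.86, 1.78 and 0.78 at 5 weeks, then 0.98, 2.42, 2.30 and 2.34 at 44 weeks. In KI it was -0.81, -0.78, -0.72 and -0.60 at 2 weeks, -0.11, 0.25, 0.83 and 0.12 at 5 weeks, then 0.99, 1.32, 1.25 and 1.36 at 44 weeks.

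The 2-week arrays of both genotypes lay together and below all others. WT means were -0.80 ± 0.16 (SD, n = 4), 1.42 ± 0.68 (n = 5) and 2.01 ± 0.69 (n = 4), and KI means -0.73 ± 0.09, 0.27 ± 0.40 and 1.23 ± 0.16 (n = 4 each). Most of the shift came from the early chains: between 2 and 44 weeks in WT Col4a1 changed by -2.58 and Col4a2 by -2.74, while Col4a3 changed by 0.57, Col4a4 by -0.14 and Col4a5 by 0.01. At 5 weeks WT arrays 6 and 10 lay within the KI range and the other 3 WT arrays above it. At 44 weeks WT array 15 lay just below the lowest KI array and the other WT arrays above the highest. The KI against WT difference in the balance at 5 weeks ran from -1.35 to -0.98 with 1 array left out. It was -0.49 with the tubule and -0.55 with the endothelium covariate. The tubule covariate also gave 0.60 at 2 weeks and -0.11 averaged over ages. With 1 array left out those were 0 to 0.12 and -0.74 to -0.57. What part other cell types have in these differences was not tested.

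**Figure D5:**
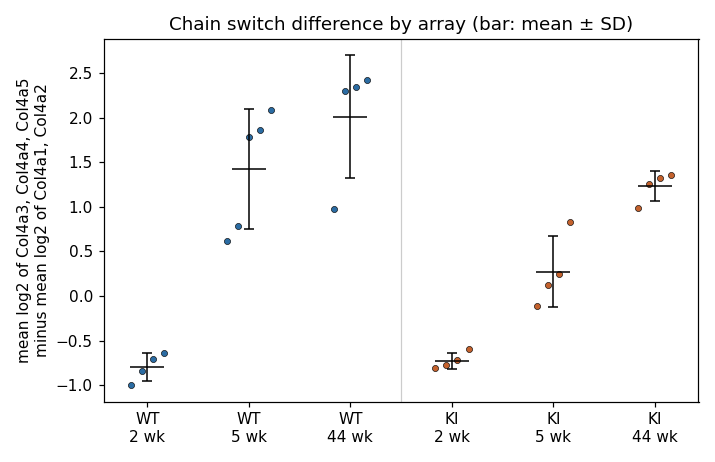
Mean log2 value of Col4a3, Col4a4 and Col4a5 minus the mean of Col4a1 and Col4a2 (y axis) in every array by group (x axis), with group mean and SD. All 2-week arrays lie between -1.0 and -0.60; at 5 weeks 3 WT arrays lie at 1.78 to 2.09, WT arrays 6 and 10 at 0.62 and 0.78, and the KI arrays from -0.11 to 0.83; at 44 weeks WT array 15 is at 0.98.

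Genes that make, export and join collagen IV chains were followed in lists of their own. For folding and modification 0 of 14 tested genes were higher and 6 lower at 5 than at 2 weeks in WT, where 12.2% of all genes were higher and 21.7% lower, with a median of -0.40 against -0.06 over all genes. They included Serpinh1, the collagen chaperone (-1.27 ± 0.21, adjusted p = 0.00017), Plod3, a lysyl hydroxylase (-1.17, adjusted p = 9.1e-05), and Ppib, a prolyl isomerase (-0.73, adjusted p = 6e-05). For crosslinking 0 of 7 were higher and 6 lower, with a median of -1.0, among them Pxdn, the peroxidase that forms the sulfilimine bonds of collagen IV (-0.95 ± 0.18, adjusted p = 0.00044), and the lysyl oxidases Loxl1 (-1.44) and Lox (-1.59). For export from the endoplasmic reticulum 1 of 16 was higher and 1 lower, with a median of -0.06, the same as over all genes. The folding and crosslinking enzymes also serve other collagens, including the Col1a1 product.

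Among collagen IV binding receptors 3 of 6 were lower at 5 weeks in WT, the integrin subunit Itga1 (-1.76 ± 0.28, adjusted p = 0.00012) and the collagen-activated kinases Ddr2 (-1.79) and Ddr1 (-0.78). Itga3, a subunit of the main podocyte laminin receptor, was at -0.44 (adjusted p = 0.15). Of other basement membrane components 0 of 17 were higher and 11 lower, with a median of -1.08. The laminin chains Lamb1 (-1.97 ± 0.26, adjusted p = 1.9e-05) and Lamc1 (-1.08) were among them. Of proteases and their inhibitors 4 of 10 were lower, led by the gelatinase Mmp2 (-2.79 ± 0.39, adjusted p = 3.2e-05), and Timp3, a matrix-bound inhibitor, was higher (0.49 ± 0.12, adjusted p = 0.0027). Over all genes 12.2% were higher and 21.7% lower in that comparison.

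The laminin β chains undergo a switch of their own in glomerular development, from β1 to β2. Lamb1 stayed low after 5 weeks in WT, with -1.91 ± 0.27 from 2 to 44 weeks (adjusted p = 1.8e-05), and was at -1.37 ± 0.27 over that span in KI (adjusted p = 0.00069). Lamb2, encoding β2, was at 0.06 over the WT span (adjusted p = 0.89), after it fell by 0.69 to 5 weeks (adjusted p = 0.047) and rose by 0.75 from 5 to 44 weeks (adjusted p = 0.048).

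Over the whole span from 2 to 44 weeks in WT 0 of 17 other basement membrane genes were higher and 12 lower, with a median of -1.58, beside 13.6% of all genes higher and 18% lower. The smallest p was that of Nid1, the laminin and collagen IV linker nidogen (-2.32 ± 0.21, adjusted p = 8.4e-08), and Frem2, of the Fraser complex of basement membranes, was at -3.12 ± 0.39 (adjusted p = 4.8e-06). In KI 12 of 17 were lower as well, with a median of -1.33, beside 15.9% of all genes. Plod2, another lysyl hydroxylase, rose, by 1.45 in WT (adjusted p = 3e-05) and 1.42 in KI (adjusted p = 5.2e-05). Serpinh1 fell, with -2.28 in WT (adjusted p = 3.4e-07) and -2.15 in KI (adjusted p = 1.3e-06).

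Between genotypes at 5 weeks the shares of list genes called stood beside 14.3% of all genes higher and 7.75% lower. Of other basement membrane genes 3 of 17 were higher and 0 lower in KI: Lama1, the laminin α1 chain (1.24 ± 0.39, adjusted p = 0.028), Lamb2 (0.84 ± 0.26, adjusted p = 0.028) and Hspg2, perlecan (0.80 ± 0.26, adjusted p = 0.034). Lama1 was also higher in the average over ages (0.90 ± 0.23, adjusted p = 0.033). Of folding genes 2 of 14 were higher and 1 lower, Plod3 at 0.59 and Ppib at 0.31 against P4hb, a subunit of prolyl hydroxylase, at -0.39 (adjusted p = 0.0057). Of export genes 2 of 16 were higher and 3 lower, with Sec31a (0.47) and Mia3, the cargo receptor for large collagens (1.05), among those higher. In crosslinking, receptors and proteases 0 genes passed.

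The genes whose pattern over the 25 arrays was most like each chain's were ranked by Pearson's r, as a description, since the arrays share groups, ages and cell makeup. For Col4a1 the nearest was Col4a2 (r = 0.993), followed by Fn1, encoding fibronectin (0.964), Col15a1 (0.957), Lgals1 (0.952) and Acta2, smooth muscle actin (0.952). For Col4a2 they were, after Col4a1, Fn1 (0.965), Emid1 (0.953), Col15a1 (0.950) and the proliferation marker Mki67 (0.950). Col4a3 was nearest to Enpep, the podocyte and tubule aminopeptidase A (0.883), and Pcsk5 (0.880), then to Ginm1, Il6ra and Tmem167b.

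Col4a4 was nearest to Selenok (0.916), Rab7 (0.898), Tmem164 (0.883), Eif5a (0.874) and Foxp1 (0.871). For Col4a5 the highest were Ssr1 (0.825), Adam17 (0.797), Tgfb2 (0.773), Tgfbr3 (0.765) and Gja3 (0.755). For Col4a6, dim on this array, they were Arhgap33 (0.800) and Rubcn (0.748). Col4a3, Col4a4 and Col4a5 were not among each other's 5 nearest genes, unlike Col4a1 and Col4a2.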

How the data were processed

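The authors deposited 1 log2 value per probe set for each of 25 arrays of a perfect-match Affymetrix mouse design; the log2 scale is read from the values, 1.86 to 13.62. The summarization and normalization of probe sets are not given in the sources used here; array medians differed by at most 0.17. Per the labels, RNA was amplified once with NuGEN WT-Ovation. The number of arrays limits the precision.

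Of 45141 probe sets 28898 had 1 gene symbol. The brightest per gene was kept, and the 30% lowest genes were left out (limit 4.603). Differences were tested with limma 3.58.1 (R 4.3.3) on 6 group means over all arrays, with Benjamini-Hochberg adjustment over 11968 genes at 0.05 and no minimum fold; steps were tested on simulated data. The members and lists were chosen with earlier results of these data known. Named genes are every chain in every comparison, up to 4 genes of a list by smallest p, and the 5 most correlated genes. Lmx1b, Lamb1, Lamb2, Lama1, Col1a1, Itga3, Frem2 and other genes repeated in a further comparison were added after their values were seen. Alternatives were other normalizations, filters, probe sets, priors, array weights, covariates and arrays left out.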

Additional observations from a re-analysis of the deposited data

Results flagged for a closer look

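Of 42 series of group values checked for a single distant array (the 6 chains and the network balance in 6 groups), 3 had one; chance flags about 1 in 20 groups. KI array 22 of 2 weeks read 11.05 for Col4a1, below the 11.48 to 11.55 of the other 3 KI arrays. WT array 15 of 44 weeks read 11.20 for Col4a3, below the 11.79 to 11.88 of the others. The same array had a balance of mature over early chains of 0.98, against 2.30 to 2.42. Array 15 had the highest proximal tubule list mean of all arrays, 10.89, and an endothelium list mean of 7.38, against 6.38 to 6.86 in the other WT arrays of that age. The part of other cell types in its values was not tested.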

How the results depend on the processing

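No paired analysis was possible because array numbers are unique to each group. Among 20 called values of single chains, 442 alternatives gave the same call in 373 cases and lost it in 69, with 0 reversals; among 46 uncalled values, 67 of 1162 alternatives turned the sign and 64 passed. The causes were not tested.

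The count of chains called in KI against WT at 5 weeks, 4, became 0 with the tubule, endothelium or mesangium covariate and with only the arrays compared. It was also 0 with only WT arrays 6 and 10, a choice that itself brings Col4a1 and Col4a2 near the KI values. With the mean of all probe sets or the other probe set it was 2, and leaving out 1 array gave 0 to 4. For the average over ages, 0 became 1 with quantile normalization, median centring or the Y-linked covariate, 2 with a 50% filter or a trended robust prior and 5 with array weights (0 to 5 with 1 array left out). Array weights also gave 2 at 44 weeks and 4 for the change from 2 to 5 weeks. In WT from 5 to 44 weeks the 2 became 1 with the mean of all probe sets, the other probe set or only the arrays compared and 4 with the tubule covariate (1 to 3 with 1 array left out). The other counts with 1 array left out ran from 2 to 3 in each KI age comparison and from 3 to 4 in WT from 2 to 5 weeks. In KI, from 2 to 44 weeks the Y-linked or tubule covariate gave 5 and from 5 to 44 weeks the mesangium covariate gave 0.

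Sign changes of uncalled values follow. With the Y-linked covariate Col4a6 was at -0.04 (WT 5 against 2 weeks) and -0.21 (WT 44 against 2), Col4a5 at -0.14 (WT 44 against 2), Col4a1, Col4a2 and Col4a5 at 0.08, 0.17 and -0.13 (KI against WT at 2 weeks), and Col4a3 at 0.05 for the change of the genotype difference from 2 to 5 weeks. Array weights gave Col4a6 0.07 (WT 44 against 5), -0.01 (KI against WT at 44 weeks) and -0.01 (average), Col4a4 0.00 (WT 44 against 2), and Col4a2, Col4a3 and Col4a4 0.07, 0.03 and 0.03 (KI against WT at 2 weeks). Col4a5 in WT at 44 against 2 weeks was at -0.04 with centring and -0.02 with quantile normalization. The endothelium covariate put Col4a5 and Col4a6 at 0.01 and 0.16 (WT 44 against 5).

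With the mean of all probe sets Col4a6 was at 0.05 (WT 44 against 5) and 0.06 (KI 44 against 5), Col4a4 at 0.03 and Col4a5 at -0.22 (WT 44 against 2), and Col4a5 at -0.25 (KI 44 against 5) and -0.02 (KI against WT at 2 weeks). The other probe set gave Col4a5 -0.03 (WT 5 against 2), -0.45 (WT 44 against 2), -0.62 (KI 44 against 5) and -0.06 (KI against WT at 2 weeks), Col4a6 0.16 (WT 44 against 5), 0.23 (KI 44 against 5) and -0.03 (average), Col4a4 0.20 (WT 44 against 2) and Col4a3 -0.06 (KI 5 against 2). The mesangium covariate gave Col4a5 -0.14 (WT 5 against 2), -0.35 (WT 44 against 2) and -0.09 (KI 44 against 5), and Col4a6 -0.08 and -0.24 for both WT spans from 2 weeks. With only WT arrays 6 and 10, Col4a5 was at -0.06 (WT 5 against 2) and 0.08 (WT 44 against 5) and Col4a6 at 0.05 (WT 44 against 5). The tubule covariate gave Col4a5 0.15 and Col4a6 0.36 (WT 44 against 5), Col4a6 0.02 (KI 44 against 5), Col4a3, Col4a4 and Col4a6 0.11, 0.01 and 0.20 (KI against WT at 2 weeks) and Col4a5 0.01 (average).

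With 1 array left out, KI against WT at 2 weeks ran from -0.12 to 0.02 (Col4a2), -0.20 to 0.01 (Col4a3), -0.08 to 0.03 (Col4a4) and -0.05 to 0.11 (Col4a5). Col4a5 ran from -0.09 to 0.19 (WT 44 against 2) and -0.22 to 0.05 (WT 44 against 5). Col4a6 ran from -0.32 to 0.13 (KI 44 against 5), -0.05 to 0.34, -0.01 to 0.45 and -0.02 to 0.13 (KI against WT at 44 weeks, at 5 weeks and averaged), -0.01 to 0.38 (WT 44 against 2) and -0.22 to 0.17 (WT 44 against 5). The number of arrays limits the precision, with standard errors of 0.24 to 0.26 for Col4a1, Col4a2 and Col4a6 between groups.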
